A study of Homo sapiens with 16 samples.

Results

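The 10 genes described here belong to the integrated stress response, the program built around the transcription factor ATF4. They were taken by symbol from the 34228 genes of the count table and are *ATF4*, *DDIT3*, *ASNS*, *CHAC1*, *TRIB3*, *SESN2*, *PSAT1*, *PHGDH*, *DDIT4* and *XBP1*. All 10 were present in the table. The RNA came from 2 human melanoma cell lines with acquired resistance to inhibitors of mutant BRAF (BRAFi-R). 451Lu-R has high MITF and low AXL, and 1205Lu-R has the reverse. Each line received for 24 hours either 2.5 μM corin, a bivalent inhibitor of the CoREST complex that blocks both its demethylase LSD1 and its histone deacetylases, or DMSO as vehicle, with 2 libraries per group and 8 libraries in all. The other 8 libraries of the series, which received the BRAF inhibitor PLX4032 with or without corin, were not analysed here. Both lines were selected by stepwise exposure to PLX4032 and maintained in 5 μM PLX4032. The corin and DMSO arms compared here were listed apart from the arms with PLX4032 and served in the study as samples without it. Each line is a single line, so a difference between them is a difference between these lines and not between phenotypes. Nothing states that the replicates were separate cultures, so p values measure the spread between these libraries, which may be technical.

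In the integrated stress response, kinases that sense unfolded protein in the endoplasmic reticulum (ER), amino acid shortage, double-stranded RNA or heme shortage phosphorylate the translation factor eIF2alpha. General translation then falls, while *ATF4* mRNA is translated more, and ATF4 protein switches on genes for amino acid synthesis and uptake, redox balance and cell death. *DDIT3*, which encodes CHOP, is a target of ATF4 and a transcription factor itself, and TRIB3 is a target that binds ATF4 and CHOP and dampens them. *XBP1* belongs to a parallel branch of the unfolded protein response, in which the ER sensor IRE1 splices its mRNA. Because *ATF4* is controlled at translation and *XBP1* by splicing, counts per gene show the amount of these mRNAs and neither ATF4 protein nor spliced *XBP1*.

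All 10 genes are protein coding. In GENCODE 44 on GRCh38, the transcription factor genes lie at chr22:39519695-39522683 on the plus strand (*ATF4*), chr12:57516588-57521737 on the minus strand (*DDIT3*) and chr22:28794555-28800597 on the minus strand (*XBP1*), and *TRIB3* lies at chr20:362835-397559 on the plus strand. The enzyme genes lie at chr7:97851677-97872542 on the minus strand (*ASNS*), chr9:78297125-78330093 on the plus strand (*PSAT1*), chr1:119648411-119744218 on the plus strand (*PHGDH*) and chr15:40952962-40956512 on the plus strand (*CHAC1*). The stress-induced growth inhibitors lie at chr1:28259518-28282491 (*SESN2*) and chr10:72273919-72276036 (*DDIT4*), both on the plus strand.

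ATF4 binds DNA at C/EBP-ATF response elements (CARE), and the promoters below are shown because they hold, or lack, the elements through which this program is read. The 250 bases before the annotated start are printed from RefSeq promoter windows on GRCh38.p14, each read 5′ to 3′ along its gene's strand. Capitals mark a CARE core (TGATGNAA, searched on both strands) in *ASNS* and *CHAC1* and an ER stress element (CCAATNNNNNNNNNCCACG) in *XBP1*. *DDIT4* and *SESN2* are shown beside *ASNS* because these 3 members had the largest rises after corin treatment in 451Lu-R.
ASNS, chr7:97872409-97872658, minus strand: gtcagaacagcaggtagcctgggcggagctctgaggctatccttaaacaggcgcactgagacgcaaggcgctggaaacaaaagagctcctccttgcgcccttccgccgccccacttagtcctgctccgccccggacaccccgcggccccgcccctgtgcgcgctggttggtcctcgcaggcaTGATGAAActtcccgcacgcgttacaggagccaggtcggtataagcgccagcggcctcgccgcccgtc
CHAC1, chr15:40953221-40953470, plus strand: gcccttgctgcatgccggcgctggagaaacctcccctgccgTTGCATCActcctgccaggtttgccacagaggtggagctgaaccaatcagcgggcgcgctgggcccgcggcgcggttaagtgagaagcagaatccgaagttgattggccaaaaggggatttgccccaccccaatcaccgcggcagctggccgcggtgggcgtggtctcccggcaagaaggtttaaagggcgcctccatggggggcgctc
DDIT4, chr10:72273674-72273923, plus strand: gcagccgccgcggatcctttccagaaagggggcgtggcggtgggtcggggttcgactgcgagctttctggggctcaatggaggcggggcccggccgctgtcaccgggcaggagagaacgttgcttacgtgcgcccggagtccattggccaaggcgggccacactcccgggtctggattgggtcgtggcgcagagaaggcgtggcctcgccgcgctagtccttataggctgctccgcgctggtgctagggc
SESN2, chr1:28259268-28259517, plus strand: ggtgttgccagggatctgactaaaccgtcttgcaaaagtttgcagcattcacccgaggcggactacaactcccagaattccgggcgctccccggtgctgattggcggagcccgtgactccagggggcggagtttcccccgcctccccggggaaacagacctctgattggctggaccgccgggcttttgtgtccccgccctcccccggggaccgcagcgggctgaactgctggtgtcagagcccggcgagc
XBP1, chr22:28800570-28800819, minus strand: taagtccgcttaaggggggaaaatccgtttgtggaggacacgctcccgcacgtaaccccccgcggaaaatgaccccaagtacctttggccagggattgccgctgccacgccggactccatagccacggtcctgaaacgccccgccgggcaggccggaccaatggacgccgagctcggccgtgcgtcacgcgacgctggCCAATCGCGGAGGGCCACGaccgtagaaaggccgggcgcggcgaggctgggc

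The CARE core of *ASNS* lay 68 to 61 bases before the start on the gene's own strand, and that of *CHAC1* lay 209 to 202 bases before the start on the opposite strand. *ASNS* and *CHAC1* were the 2 of 10 members whose window of 300 bases, from 250 before to 50 after a start, held the CARE core, beside 4.46% of the 27305 genes with a window. The ER stress element of *XBP1* lay 52 to 34 bases before the start, beside 0.0916% of all genes, and no member held the core of the unfolded protein response element (TGACGTGG), which 0.927% of all genes did. No member held more than a single match, so matches could not overlap within a member. A match is a description of letters and not of binding, and the absence of a match covers this window only.

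Library totals ran from 9516687 to 11797788 estimated counts. Values are given as CPM, the counts of a gene per 1000000 counts in its library. Replicates of a group correlated across genes with Pearson's r of 0.997 on log2 CPM. Melanocyte lineage markers summed to between 13650 and 13730 CPM in 451Lu-R with DMSO, and to 8.29 and 8.56 CPM in 1205Lu-R with DMSO, where *SOX10* and *TYR* had 0 counts in all 4 libraries. Dedifferentiated melanoma markers ran the other way, from 3.83 to 4.99 CPM in 451Lu-R and from 1465 to 1478 CPM in 1205Lu-R with DMSO. Both lineage sums differed between corin and DMSO, as most of the members did. In 451Lu-R with corin the melanocyte sum was 11700 to 11750 CPM and the dedifferentiated sum 364.5 to 370.5 CPM. In 1205Lu-R with corin they were 23.2 to 26.6 CPM and 1024 to 1031 CPM. These sums hide opposite moves. In 451Lu-R mean *MITF* fell from 793 to 287 CPM and *SOX10* from 758 to 234 CPM, while *DCT* rose from 1668 to 2675 CPM. *NGFR*, at a mean of 351 CPM, made up most of the dedifferentiated sum in 451Lu-R with corin. In 1205Lu-R mean *AXL* fell from 962 to 476 CPM and *WNT5A* from 194 to 37.5 CPM. There *NGFR* rose from 5.86 to 202 CPM, and *SOX9* stayed near its level, at 310 and 312 CPM. Fibroblast markers also moved, from 46.46 and 49.99 to 147 and 150 CPM in 451Lu-R and from 1.04 and 1.27 to 8.74 and 9.09 CPM in 1205Lu-R. With corin, all 4 fibroblast markers were at 1 CPM or more in 451Lu-R, while 1205Lu-R had 1 such marker. The part of these markers in the results was not tested, and in bulk RNA a change in the share of cells and a change in RNA per cell cannot be told apart. Keratinocyte, endothelial and leukocyte markers summed to at most 8.14, 27.6 and 5.22 CPM in any library. With corin the endothelial sum went from 1.35 and 1.47 to 8.39 and 9.10 CPM in 451Lu-R. In 1205Lu-R it went from 10.7 and 10.8 to 24.0 and 27.6 CPM. Mean *VWF* rose there from 1.33 to 18.4 CPM, while *PECAM1* went from 9.44 to 7.34 CPM. The keratinocyte sum went from 0.380 and 0.547 to 7.985 and 8.137 CPM in 451Lu-R.

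Corin treatment was compared with DMSO in each line to ask how these genes respond to CoREST inhibition. *ASNS*, *DDIT4* and *SESN2* showed the largest rises in 451Lu-R, *ATF4* mRNA rose modestly in both lines, and *TRIB3* and *XBP1* fell in both lines. In 451Lu-R, 6 of the 9 members tested rose and 2 fell at an adjusted p under 0.05 by edgeR's quasi-likelihood test. The background was broad, since 41.3% of 14530 genes rose and 38.6% fell in the same comparison. In 1205Lu-R, 8 of 10 members rose and 2 fell, beside 40.4% of 14563 genes that rose and 37.8% that fell. The members' median log2 fold change was 0.26 in 451Lu-R (range -0.47 to 2.67) and 0.85 in 1205Lu-R (range -0.80 to 1.77), and the median over all genes tested was 0.03 in both.

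**Figure D1:**
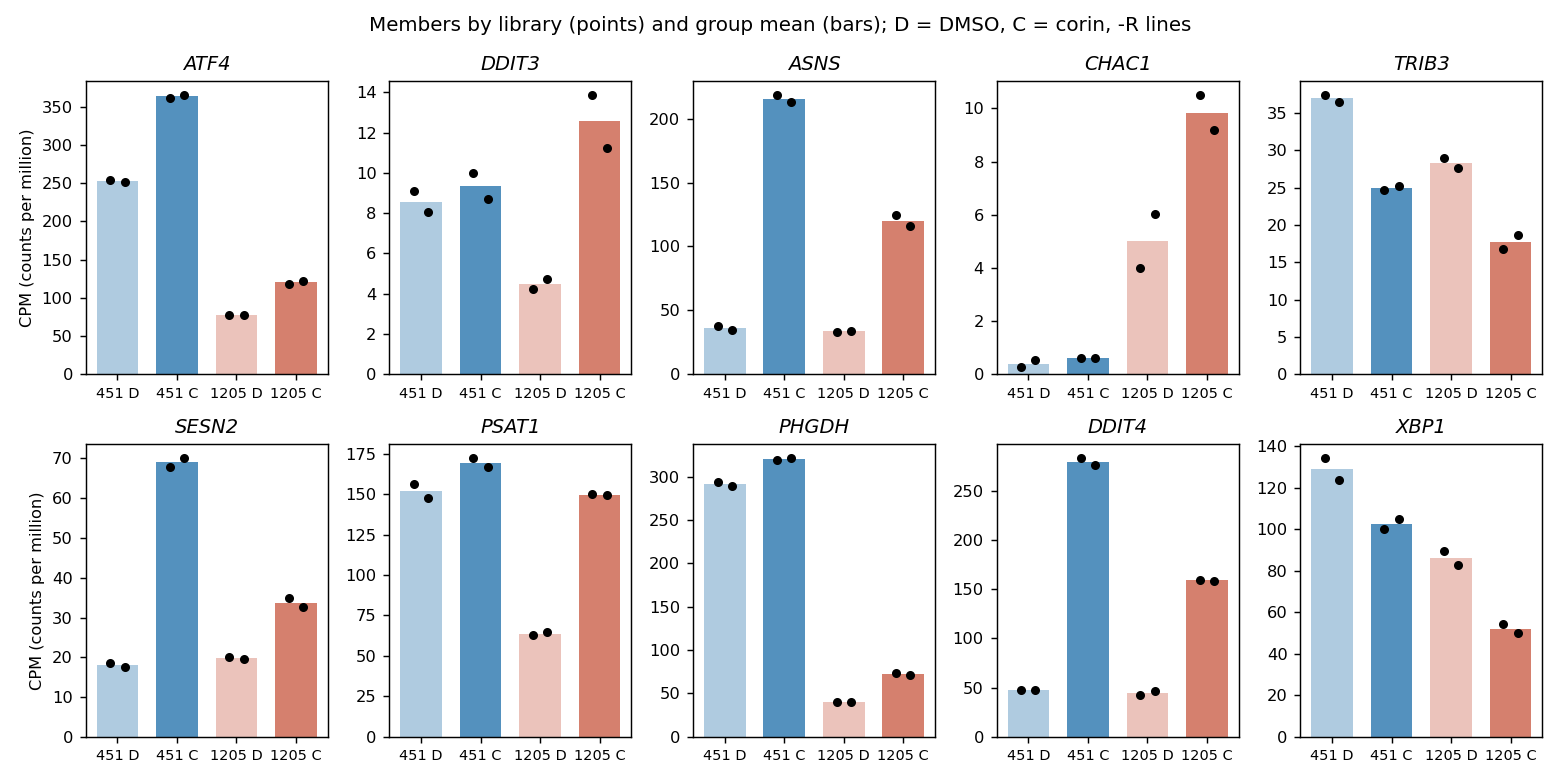
CPM of each gene in each of the 8 libraries (points) with the mean of each group (bars), one panel per gene, for 451Lu-R and 1205Lu-R with DMSO (D) or corin (C). *ASNS* and *DDIT4* with corin stand at 213 to 284 CPM in 451Lu-R and at 116 to 160 CPM in 1205Lu-R, while *TRIB3* and *XBP1* are lower with corin in both lines.

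*ATF4*, the transcription factor at the centre of the program, was at 254 and 251 CPM with DMSO and 362 and 365 CPM with corin in 451Lu-R. The 1205Lu-R libraries held 77.0 and 78.0 CPM with DMSO and 118 and 122 CPM with corin. Corin libraries were above DMSO libraries in each line, and all 451Lu-R libraries were above all 1205Lu-R libraries. *ATF4* rose by a log2 fold change of 0.63 (SE 0.026, adjusted p = 2.23e-14) in 451Lu-R and 0.56 (SE 0.043, adjusted p = 9.89e-11) in 1205Lu-R. The difference between these responses did not pass the test (log2 -0.10, SE 0.054, adjusted p = 0.123).

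*DDIT3*, which encodes the proapoptotic factor CHOP, was at 9.08 and 8.07 CPM with DMSO and 10.0 and 8.70 CPM with corin in 451Lu-R, and these groups overlapped. In 1205Lu-R it was at 4.25 and 4.71 CPM with DMSO and 13.9 and 11.2 CPM with corin, with every corin library above every DMSO library. The log2 fold change was 0.23 (SE 0.15, adjusted p = 0.174) in 451Lu-R and 1.40 (SE 0.17, adjusted p = 1.16e-07) in 1205Lu-R. The rise was greater in 1205Lu-R by 1.14 on the log2 scale (SE 0.23, adjusted p = 0.000344). *DDIT3* shares 355 exonic bases with *MARS1*, the methionyl-tRNA synthetase gene on the opposite strand, and the strandedness of the counts is not stated. *MARS1* moved the other way in 1205Lu-R, from 119 and 121 CPM with DMSO to 62.1 and 63.2 CPM with corin.

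*XBP1*, the transcription factor of the IRE1 branch, was at 134 and 124 CPM with DMSO and 99.9 and 105 CPM with corin in 451Lu-R. For 1205Lu-R the values were 89.5 and 82.6 CPM with DMSO and 54.1 and 50.2 CPM with corin. Both lines had every corin library below every DMSO library. *XBP1* fell by a log2 fold change of -0.24 (SE 0.046, adjusted p = 7.45e-05) in 451Lu-R and -0.80 (SE 0.056, adjusted p = 1.72e-11) in 1205Lu-R. The fall was greater in 1205Lu-R (difference -0.60, SE 0.080, adjusted p = 1.87e-06).

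*TRIB3*, the pseudokinase that restrains ATF4 and CHOP, was at 37.4 and 36.5 CPM with DMSO and 24.8 and 25.2 CPM with corin in 451Lu-R. The values in 1205Lu-R were 29.0 and 27.7 CPM with DMSO and 16.8 and 18.6 CPM with corin. The groups of each line were separate, with corin lower. *TRIB3* changed by a log2 fold change of -0.47 (SE 0.077, adjusted p = 1.47e-05) in 451Lu-R and -0.75 (SE 0.094, adjusted p = 2.64e-07) in 1205Lu-R. The difference between the lines passed the test (log2 -0.32, SE 0.12, adjusted p = 0.0295) but did not with DESeq2 (log2 -0.31, adjusted p = 0.181) or scaling by library size only (log2 -0.11, adjusted p = 0.514). It also missed the threshold without 451Lu-R DMSO replicate 2, either 451Lu-R corin library, 1205Lu-R DMSO replicate 1 or 1205Lu-R corin replicate 1 (adjusted p from 0.062 to 0.197). A known target of ATF4 was thus lower in the same libraries in which *ATF4* mRNA was higher.

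*ASNS*, asparagine synthetase, was at 37.7 and 34.7 CPM with DMSO and 219 and 213 CPM with corin in 451Lu-R. The 1205Lu-R libraries held 32.8 and 34.1 CPM with DMSO and 124 and 116 CPM with corin. DMSO libraries of both lines lay close together and far below all corin libraries, and corin libraries of 451Lu-R lay above those of 1205Lu-R. The log2 fold change was 2.67 (SE 0.047, adjusted p = 2.3e-20) in 451Lu-R, rank 1384 of 14530 genes from the top, and 1.77 (SE 0.055, adjusted p = 1.27e-17) in 1205Lu-R. The rise was smaller in 1205Lu-R (difference -0.94, SE 0.085, adjusted p = 6.21e-09). *ASNS* shares 2415 exonic bases with an unnamed gene on the same strand, so the estimation could split reads between them. That gene held 14.0 to 21.3 CPM in 451Lu-R and 6.76 to 13.2 CPM in 1205Lu-R, and the sum of both rose by a log2 fold change of 2.30 and 1.63 in the respective lines.

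*PSAT1* and *PHGDH* encode enzymes of serine synthesis from glycolytic intermediates. *PSAT1* was at 156 and 148 CPM with DMSO and 172 and 166 CPM with corin in 451Lu-R, and at 62.6 and 64.5 CPM with DMSO and 150 and 149 CPM with corin in 1205Lu-R. Corin libraries were higher in both lines, by a narrow margin in 451Lu-R, and 1205Lu-R with corin came to the level of 451Lu-R with DMSO. *PSAT1* rose by a log2 fold change of 0.26 (SE 0.037, adjusted p = 3.01e-06) in 451Lu-R and 1.16 (SE 0.042, adjusted p = 1.56e-16) in 1205Lu-R, a difference of 0.87 (SE 0.061, adjusted p = 1.12e-10).

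*PHGDH*, which catalyses the first step of that route, was at 294 and 289 CPM with DMSO and 319 and 322 CPM with corin in 451Lu-R. The 1205Lu-R libraries held 39.67 and 39.68 CPM with DMSO and 73.9 and 71.5 CPM with corin. Corin libraries were higher in each line, and every 1205Lu-R library was far below every 451Lu-R library. *PHGDH* rose by a log2 fold change of 0.24 (SE 0.026, adjusted p = 8.61e-08) in 451Lu-R and 0.80 (SE 0.058, adjusted p = 3.15e-11) in 1205Lu-R, a difference of 0.53 (SE 0.065, adjusted p = 6.95e-07).

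*SESN2* and *DDIT4* (REDD1) encode stress-induced inhibitors of the growth kinase complex mTORC1. *SESN2* was at 18.5 and 17.5 CPM with DMSO and 67.8 and 70.2 CPM with corin in 451Lu-R, and at 20.2 and 19.6 CPM with DMSO and 34.9 and 32.6 CPM with corin in 1205Lu-R. DMSO libraries of both lines lay near each other, and 451Lu-R with corin was highest. Its log2 fold change was 2.03 (SE 0.076, adjusted p = 3.31e-15) in 451Lu-R and 0.69 (SE 0.086, adjusted p = 2.43e-07) in 1205Lu-R. The difference, -1.38 (SE 0.11, adjusted p = 1.04e-09), was the largest in size among the 10 members.

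*DDIT4* was at 47.8 and 48.1 CPM with DMSO and 284 and 276 CPM with corin in 451Lu-R. Its levels in 1205Lu-R were 42.5 and 46.1 CPM with DMSO and 160 and 159 CPM with corin. As for *ASNS*, DMSO libraries of both lines were close and corin libraries were separate and higher, with 451Lu-R above 1205Lu-R. *DDIT4* rose by a log2 fold change of 2.65 (SE 0.040, adjusted p = 2.48e-21) in 451Lu-R and 1.77 (SE 0.048, adjusted p = 8.52e-19) in 1205Lu-R, and the difference was -0.91 (SE 0.072, adjusted p = 6.81e-10). Its log2 fold changes lay beside 2.67 and 1.77 for *ASNS* alone, and beside 2.30 and 1.63 for *ASNS* summed with its overlapping gene.

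*CHAC1*, an enzyme that degrades glutathione, was near the limit of detection in 451Lu-R, with 3 and 5 counts with DMSO (0.275 and 0.517 CPM) and 7 and 6 counts with corin (0.593 and 0.600 CPM). It did not pass the filter on low counts there and was not tested, and a difference was not detectable at this depth. In 1205Lu-R it was at 3.98 and 6.03 CPM with DMSO and 10.5 and 9.18 CPM with corin, with both corin libraries higher. The log2 fold change in 1205Lu-R was 0.90 (SE 0.18, adjusted p = 0.000143). The difference between the lines in the response, 0.17 (SE 0.77, adjusted p = 0.907), carried too wide an error to be read in either direction.

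**Figure D2:**
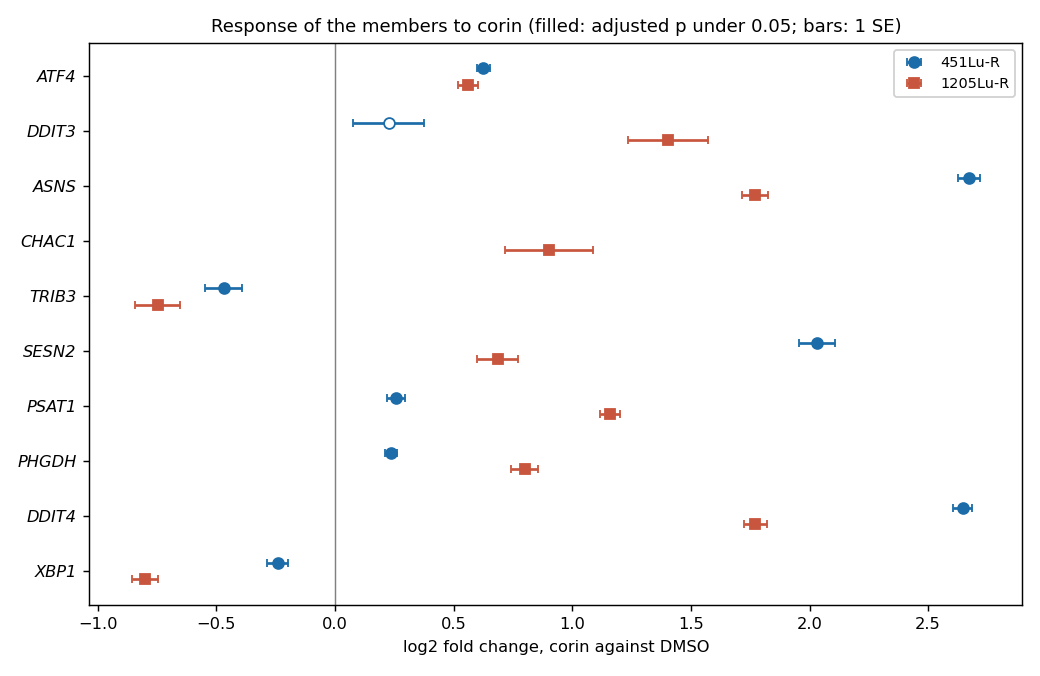
Log2 fold change of corin against DMSO (x axis) for each gene (y axis) in 451Lu-R (circles) and 1205Lu-R (squares), with bars of 1 SE and filled symbols at an adjusted p under 0.05. *ASNS*, *DDIT4* and *SESN2* lie farther to the right in 451Lu-R, *DDIT3*, *PSAT1* and *PHGDH* farther to the right in 1205Lu-R, and *CHAC1* has no value in 451Lu-R.

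By size, *ASNS*, *DDIT4* and *SESN2* were the 3 members that rose by at least 2-fold in 451Lu-R, where 22.2% of genes did. All 3 also passed a 4-fold change with an adjusted p under 0.001, beside 12.4% of genes. *DDIT3*, *ASNS*, *PSAT1* and *DDIT4* were the 4 of 10 that rose by at least 2-fold in 1205Lu-R, beside 22% of genes, and none reached the stricter rule that 11.3% of genes passed. No member fell by 2-fold in either line, beside 13.3% of genes for 451Lu-R and 9.8% for 1205Lu-R. The stricter rule was passed downward by 2.72% and 1.43% of genes.

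The test of the difference between the lines separated the members. *DDIT3*, *PSAT1* and *PHGDH* responded more positively in 1205Lu-R, 3 of 10 beside 22.6% of 16062 genes. *ASNS*, *DDIT4*, *SESN2*, *TRIB3* and *XBP1* responded more negatively, 5 of 10 beside 27.1% of genes. Of these, *ASNS*, *DDIT4* and *SESN2* rose less in 1205Lu-R, and *TRIB3* and *XBP1* fell more. A difference of at least 2-fold was seen for *DDIT3* upward, beside 9.34% of genes, and for *SESN2* downward, beside 9.46%. None of the 10 passed the stricter rule, as 2.43% and 3.12% of genes did.

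Levels in the lines with DMSO were compared to place these responses. *ATF4*, *PSAT1*, *PHGDH*, *DDIT3*, *TRIB3* and *XBP1* were lower in 1205Lu-R, 6 of 10 beside 41.5% of 14104 genes. *CHAC1* and *SESN2* were higher, 2 of 10 beside 41% of genes. *CHAC1* had 3 and 5 counts in 451Lu-R and 44 and 64 counts in 1205Lu-R, and it passed the filter on low counts through 1205Lu-R alone, so its difference is given by these counts and not by a test. The largest difference among the other members was that of *PHGDH* (log2 -2.77, adjusted p = 5.48e-26), followed by *ATF4* (log2 -1.60, adjusted p = 4.54e-22) and *PSAT1* (log2 -1.15, adjusted p = 3.35e-17). *DDIT3* (log2 -0.83), *XBP1* (log2 -0.48) and *TRIB3* (log2 -0.28) differed less, and *TRIB3* did not pass with DESeq2 (adjusted p = 0.0913). *SESN2* (log2 0.25, adjusted p = 0.0278) did not pass with DESeq2 (adjusted p = 0.217), nor without 451Lu-R DMSO replicate 2 (adjusted p = 0.128) or 1205Lu-R DMSO replicate 1 (adjusted p = 0.092). *ASNS* and *DDIT4*, with log2 differences of -0.01 each (adjusted p = 0.879 and 0.904), had libraries of both lines within a few CPM of each other, though *ASNS* summed with its overlapping gene was lower in 1205Lu-R (log2 -0.24, adjusted p = 0.0018). By size, *ATF4*, *PSAT1* and *PHGDH* were at least 2-fold lower, beside 21.8% of genes, and *PHGDH* passed the stricter rule, beside 10.6%. Upward, 19.6% and 10.1% of genes passed these rules, and no member did apart from *CHAC1*, from whose call nothing is read.

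With corin, 8 of 10 members were lower in 1205Lu-R than in 451Lu-R, beside 40.2% of 15363 genes, and 1 was higher, beside 39%. *ASNS* and *DDIT4*, close between the lines with DMSO, were now lower in 1205Lu-R by log2 differences of -0.94 (adjusted p = 6.37e-14) and -0.91 (adjusted p = 1.12e-14). *SESN2* moved from slightly higher to lower, at a log2 difference of -1.12 (adjusted p = 1.46e-11). *PSAT1* came nearer, at a log2 difference of -0.27 (adjusted p = 1.13e-06), while *ATF4* (-1.69) and *PHGDH* (-2.23) stayed lower. The 1 member called higher was *CHAC1*, with 7 and 6 counts in 451Lu-R and 100 and 102 counts in 1205Lu-R, and it again passed the filter through 1205Lu-R alone. Apart from *CHAC1*, no member was past 2-fold upward, as 18.6% of genes were, or past the stricter rule, as 8.45% were. *DDIT3* was at a log2 difference of 0.32 (adjusted p = 0.0566), which did not pass, but did with library size only (adjusted p = 0.0173), without 451Lu-R corin replicate 1 (adjusted p = 0.0416) and without 1205Lu-R corin replicate 2 (adjusted p = 0.00553). *ATF4*, *PHGDH*, *SESN2* and *XBP1* were at least 2-fold lower, beside 19.9% of genes, and *PHGDH* passed the stricter rule, beside 8.55%. These comparisons use the same libraries as the comparisons of corin with DMSO, so the values of both are given side by side and not as separate evidence.

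**Figure D3:**
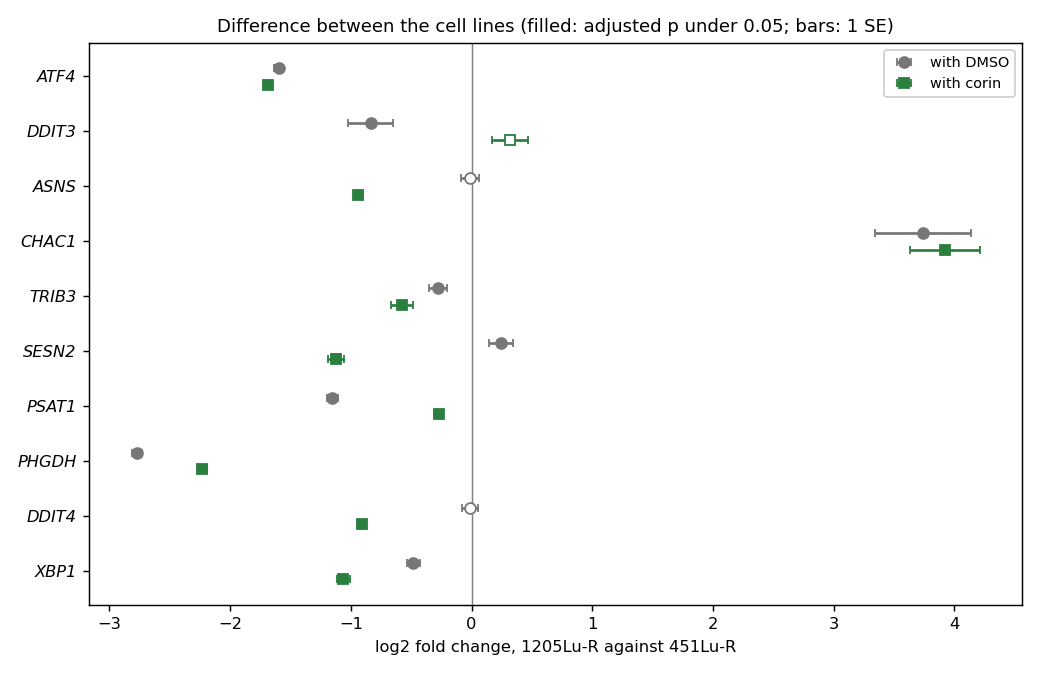
Log2 difference of 1205Lu-R against 451Lu-R (x axis) for each gene (y axis) with DMSO (circles) and with corin (squares), with bars of 1 SE and filled symbols at an adjusted p under 0.05. *ASNS* and *DDIT4* lie at -0.01 with DMSO and at -0.94 and -0.91 with corin, and *CHAC1* lies far to the right in both, from 3 to 7 counts a library in 451Lu-R.

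To compare levels between genes, CPM was divided by exonic length in kilobases, merged over all annotated transcripts of a gene. This length can exceed that of any single transcript, and the order of the genes depends on it. It was 9187 bases for *PHGDH* and 2613 bases for *ATF4*. By mean CPM alone *PHGDH* (291) stood above *ATF4* (252) in 451Lu-R with DMSO. In 451Lu-R with DMSO *ATF4* was highest (96.5 CPM per kilobase), followed by *PSAT1* (68.9), *XBP1* (42.6), *PHGDH* (31.7), *DDIT4* (22.6), *TRIB3* (11.2), *ASNS* (7.39), *DDIT3* (6.56), *SESN2* (5.201) and *CHAC1* (0.193), and no neighbours in this order overlapped. With corin, *DDIT4* (132) came to stand just under *ATF4* (139), and *ASNS* (44.1) passed *PHGDH* (34.9) and *XBP1* (33.8). *TRIB3* (7.59) and *DDIT3* (7.15) then overlapped. In 1205Lu-R with DMSO *ATF4* (29.7), *PSAT1* (28.8) and *XBP1* (28.4) were close. The range of *XBP1* overlapped those of both *ATF4* and *PSAT1*, and *DDIT4* (20.9) followed. With corin the order in 1205Lu-R changed at the top, with *DDIT4* (75.1) and *PSAT1* (67.8) above *ATF4* (46.0). *SESN2* (9.74) and *DDIT3* (9.61) overlapped there, as did *TRIB3* (5.38) and *CHAC1* (4.80).

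**Figure D4:**
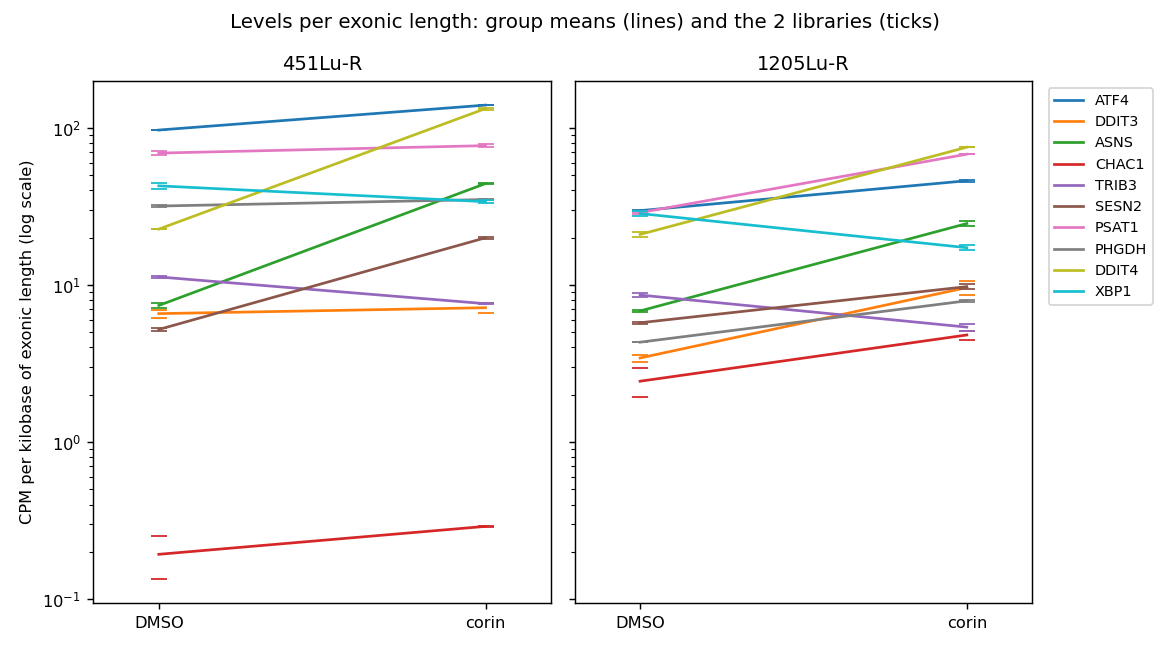
CPM per kilobase of exonic length (y axis, log scale) with DMSO and with corin (x axis) in 451Lu-R and 1205Lu-R, with lines between group means and ticks for the 2 libraries of each group. The lines of *DDIT4*, *ASNS* and *SESN2* are steep in 451Lu-R, and those of *TRIB3* and *XBP1* slope down in both lines.

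The upstream part of the pathway was described by a list of 17 genes for the eIF2alpha kinases, eIF2 and its exchange factor and phosphatases, all tested. The counts of this and the following lists stand beside the same background as the members, with 41.3% of all genes rising and 38.6% falling in 451Lu-R. The shares for 1205Lu-R were 40.4% and 37.8%. With corin 4 rose and 10 fell in 451Lu-R (median log2 -0.20), a smaller share rising and a larger share falling than in the background. In 1205Lu-R 6 rose and 8 fell (median -0.06), near the background. Among the kinases, *EIF2AK3* (PERK, the ER stress sensor) rose in both lines, by 0.56 (adjusted p = 4.66e-06) and 0.48 (adjusted p = 1.11e-05) in log2 units for 451Lu-R and 1205Lu-R. *EIF2AK4* (GCN2, the sensor of amino acid shortage) fell in both, at log2 -0.53 (adjusted p = 3.89e-09) and -0.80 (adjusted p = 7.58e-13). *EIF2AK1* (HRI, the heme sensor) rose by 0.12 and 0.33. *EIF2AK2* (PKR, the sensor of double-stranded RNA) fell in 451Lu-R (log2 -0.38) and was at -0.06 in 1205Lu-R (adjusted p = 0.274). *PPP1R15B*, the constitutive phosphatase subunit, rose by 0.60 and 0.91. *EIF2B1* (log2 -0.83 and -0.70) and *EIF2B5* (log2 -0.47 and -0.88), subunits of the eIF2 exchange factor, fell in both. *OMA1*, the mitochondrial protease that signals to HRI, rose in 1205Lu-R (log2 1.01) and was at -0.17 in 451Lu-R (adjusted p = 0.134). These are mRNA levels and do not show kinase activity.

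The list of other ATF4 and CHOP stress genes held 20 genes, of which 18 were tested in each line. In 451Lu-R 12 rose and 4 fell (median log2 0.60), and in 1205Lu-R 11 rose and 6 fell (median 0.79), beside 41.3% and 40.4% of all genes that rose. *ATF3* went from 2.84 and 1.97 CPM to 16.9 and 19.6 CPM in 451Lu-R (log2 2.99, adjusted p = 6.87e-12), and *CEBPB* went from 36.2 and 35.6 CPM to 220.1 and 221.2 CPM (log2 2.72, adjusted p = 7.88e-21). Both also rose in 1205Lu-R, by 2.32 and 1.64. *ATF5*, a close relative of *ATF4*, went the other way in both lines, from 24.9 and 24.8 CPM to 3.20 and 3.20 CPM in 451Lu-R (log2 -2.85, adjusted p = 2.71e-13) and by a log2 fold change of -2.19 in 1205Lu-R. In 1205Lu-R *BCL2L11* (BIM, a proapoptotic BH3-only protein) rose from 9.40 and 8.47 CPM to 85.1 and 81.9 CPM (log2 3.15, adjusted p = 5.22e-19). It rose in 451Lu-R as well (log2 2.12). *SESN3*, a paralog of *SESN2*, was called in 451Lu-R (log2 0.96) and 1205Lu-R (log2 2.82), as was *GDF15*, a secreted stress cytokine (log2 1.70 and 2.68).

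Serine, glycine and one-carbon metabolism was described by 16 genes. Of 14 tested in 451Lu-R 3 rose and 7 fell (median log2 -0.17), and of 16 tested in 1205Lu-R 10 rose and 4 fell (median 0.40). *SHMT2* and *MTHFD1L*, enzymes of the mitochondrial folate pathway, fell in both lines while *PSAT1* and *PHGDH* rose. They do not stand for that pathway as a whole. *MTHFD2*, another of its enzymes, was at log2 -0.03 (adjusted p = 0.351) in 451Lu-R and rose in 1205Lu-R (log2 0.46, adjusted p = 9.81e-11). The log2 fold change of *SHMT2* was -1.53 (adjusted p = 3.34e-17) in 451Lu-R and -1.05 (adjusted p = 4.1e-16) in 1205Lu-R, and *MTHFD1L* had -1.47 and -1.49. *ALDH1L1* was at 0.630 and 0.293 CPM with DMSO (6.97 and 3.12 counts) in 1205Lu-R. With corin it was at 2.17 and 3.29 CPM (20.7 and 36.6 counts). It passed the filter on low counts through the corin libraries alone, so its difference is given by these counts and not by a test. The 10 rises in 1205Lu-R count it, and also *CTH*, at 18 and 8 counts with DMSO and 23 and 24 counts with corin.

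Of 12 amino acid transporter genes, 11 were tested in each line, and 7 rose and 4 fell in 451Lu-R (median log2 0.47) while 3 rose and 5 fell in 1205Lu-R (median -0.01). *SLC38A2*, which carries small neutral amino acids, went from 164.5 and 169.0 CPM to 667.8 and 671.4 CPM in 451Lu-R (log2 2.11, adjusted p = 1.36e-22), and was at log2 0.02 in 1205Lu-R (adjusted p = 0.677). *SLC6A9*, a glycine transporter, fell in both lines, by log2 fold changes of -3.09 and -2.62. *SLC38A1* was at 0.471 and 0.310 CPM with DMSO and 4.32 and 2.40 CPM with corin in 451Lu-R. There it passed the filter on low counts through the corin libraries alone. The 7 rises in 451Lu-R count it, and nothing is read from its call. In 1205Lu-R, where it was higher, it fell from 139 and 137 CPM to 76.4 and 71.2 CPM (log2 -0.98, adjusted p = 5.04e-15). *SLC1A4* rose in both lines (log2 0.79 and 1.60), and *SLC36A4* fell in both (log2 -0.50 and -1.42). Of 20 cytosolic aminoacyl-tRNA synthetases, a group known as targets of ATF4, 12 fell and 7 rose in 451Lu-R (median log2 -0.23), and 11 fell and 5 rose in 1205Lu-R (median -0.25), beside 38.6% and 37.8% of all genes that fell. *WARS1* (log2 -1.44 and -1.72), *VARS1* (-0.79 and -0.57), *LARS1* (-0.75 and -0.72), *MARS1* (-0.33 and -1.01) and *HARS1* (-0.28 and -0.73) fell in both lines.

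The CARE core lay in the window of 7 of 16 synthetase genes (43.8%), 5 of 10 transporter genes (50%) and 4 of 16 other ATF4 and CHOP genes (25%) that had a window, beside 4.46% of all genes. It lay in 2 of 10 one-carbon genes (20%), 1 of 8 paralogs (12.5%), 1 of 15 genes of the eIF2alpha list (6.67%) and 1 of 25 ER genes (4%). Outside the members, 21 list genes held it, and 20 of them were tested in each line. In 451Lu-R 15 of the 20 rose with 4 falling, and in 1205Lu-R 7 rose with 9 falling, the latter close to the background of 40.4% and 37.8%. The 15 count *SLC38A1*, which passed the filter on low counts in 451Lu-R through the corin libraries alone, so nothing is read from its call. Among the 7 synthetase genes with the core, 4 were higher with corin and 2 lower in 451Lu-R, against 1 higher and 4 lower in 1205Lu-R.

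The ER branch was described by 29 genes for chaperones and ER-associated degradation, all tested. In 451Lu-R 12 rose and 13 fell (median log2 0.02), and in 1205Lu-R 13 rose and 13 fell (median -0.11). These counts were near the background in both lines. By 2-fold or more, 2 rose and 1 fell in 451Lu-R, against 3 and 1 for 1205Lu-R. The chaperone gene *HSPA5* was among these 3 rises (log2 1.13, adjusted p = 2.95e-25). Its level there went from 1096 and 1147 CPM to 2590 and 2569 CPM. *HSPA5* was also called higher in 451Lu-R (log2 0.08, adjusted p = 0.00466), but its libraries overlapped. They held 629 and 646 CPM with DMSO and 633 and 619 CPM with corin. *HERPUD1*, a component of ER-associated degradation, rose in both lines, from 36.0 and 33.7 CPM to 108.5 and 111.3 CPM in 451Lu-R (log2 1.75, adjusted p = 3.14e-16) and with a log2 fold change of 1.99 in 1205Lu-R. *ERN1*, which encodes IRE1, the enzyme that splices *XBP1*, rose in 1205Lu-R (log2 1.58, adjusted p = 4.62e-13) and in 451Lu-R (log2 0.71, adjusted p = 1.98e-05). *EDEM1* rose in 451Lu-R (log2 1.39). In 1205Lu-R it was called lower (log2 -0.11, adjusted p = 0.00562), but its libraries overlapped. They held 245 and 238 CPM with DMSO and 231 and 240 CPM with corin. *ATF6B* (log2 -1.20 and -0.57) and *DERL2* (log2 -0.91 and -1.31) fell in both. Among 9 paralogs of the members, 8 were tested, of which 4 rose with 3 falling in 451Lu-R, and 3 moved each way in 1205Lu-R. *CHAC2*, the constitutive relative of *CHAC1*, rose in both (log2 1.61 and 1.88), and *TRIB2* fell in 451Lu-R from 493.4 and 498.6 CPM to 178.7 and 174.8 CPM (log2 -1.39) and in 1205Lu-R by a log2 fold change of -0.82, in the direction of *TRIB3*. *TRIB1* went the other way in 1205Lu-R (log2 0.93, adjusted p = 5.15e-15) and was at log2 -0.05 in 451Lu-R (adjusted p = 0.430).

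**Figure D5:**
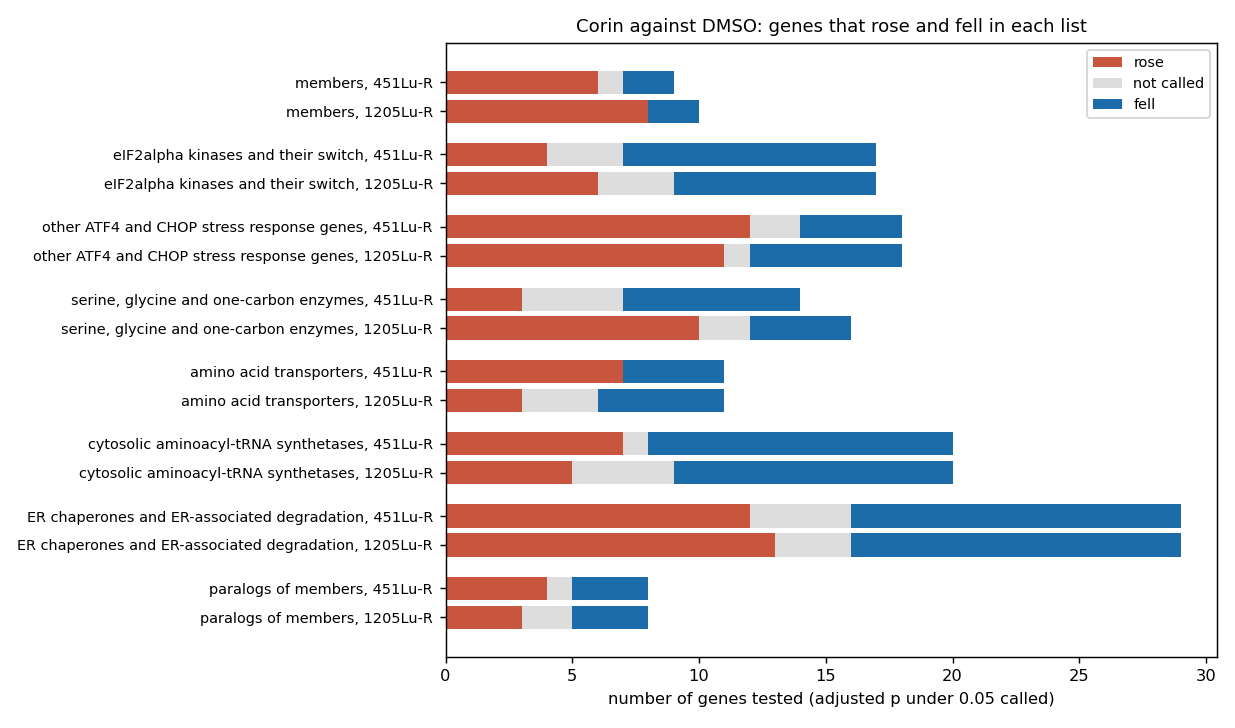
Number of genes tested (x axis) that rose, fell or were not called with corin against DMSO at an adjusted p under 0.05, for the 10 members and 7 other lists (y axis) in each line. In both lines more of the members and of the other ATF4 and CHOP genes rose than fell, and more of the aminoacyl-tRNA synthetases fell than rose.

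The genes whose pattern over the 8 libraries was most like that of *ATF4*, by Pearson's r of log2(CPM + 1) over 9994 genes with a mean of at least 10 CPM, were *ID4* (r = 0.9993), *TTLL1* (0.9991) and *ECI1* (0.9985). For *DDIT3* they were *RTN4RL2* (0.975), *CC2D1A* (0.974) and *RNASEH2C* (0.972). The libraries fall into 4 groups by line and treatment, so these values describe the order of the groups and were given no test.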

How the data were processed

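Polyadenylated RNA from 451Lu-R and 1205Lu-R was sequenced in paired ends. The authors used Trimmomatic for trimming and Salmon for quantification, with transcripts of GENCODE v32 (hg38 per the labels) summed to genes. They deposited estimated counts per gene for 8 libraries, without normalization. Tool versions and strandedness are not given in the sources used here. The authors' deposited tables for PLX4032 hold log2 fold changes and p-values of their own comparisons and were not used.

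Gene IDs were matched to GENCODE 44, which named 34052 of 34228 genes. Estimated counts were rounded and tested with edgeR 4.0.16 in R 4.3.3 (filterByExpr, TMM, glmQLFit and glmQLFTest, 2-sided), with Benjamini-Hochberg adjustment over all genes tested and calls at an adjusted p under 0.05. The methods describe DESeq2, which was run as an alternative (1.42.0). The SE is the absolute log2 fold change over the square root of F. Each fit used the 4 libraries compared. The difference in response used the interaction term over 8 libraries. The fits of corin against DMSO and of the difference in response were tested on simulated data in which few genes changed. Changes as broad as those seen here, and the comparisons between lines, were not simulated.

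Library totals were 9516687 to 11797788, which sets counting error and limits *CHAC1* in 451Lu-R. Between replicates the chi-square per degree of freedom was 1.34 to 1.40, where Poisson sampling gives 1. Deviations of libraries with the same number correlated with r of -0.021 and -0.007, so numbers were not used as pairs. The labels give no sequencing batch. Other alternatives were scaling by RLE factors or by library size only, dropping the filter or replacing it with a mean CPM of 1 or more, a replicate block, one fit over all libraries, 2-fold and 4-fold rules, leaving out each library and, chosen after seeing the data, *ASNS* summed with its overlapping gene. The 10 members and the 7 other lists, written from general knowledge, were chosen with earlier results of these data known. Single cell type markers are named, as are *MTHFD2* beside *SHMT2* and *MTHFD1L*, *TRIB1* beside *TRIB2*, the chaperone gene *HSPA5*, and *ADM2* and *CTH* for their low counts. The other genes named are the members, the eIF2alpha kinases, from each other list at most 3 genes per line with the largest change among those called at a mean of at least 1 CPM, the genes most like *ATF4* and *DDIT3*, and *MARS1* for its overlap with *DDIT3*. A result for a gene that this rule also names is not reported here. Promoter sequences are from RefSeq on GRCh38.p14, and all 10 members matched.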

Additional observations from a re-analysis of the deposited data

Results flagged for a closer look

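The response to corin differed between the lines for 8 of the 10 members by the interaction test, where 22.6% of all genes differed upward and 27.1% downward. On the log2 scale, as 1205Lu-R minus 451Lu-R, the response was higher for *DDIT3* (1.14), *PSAT1* (0.866) and *PHGDH* (0.525). *ASNS* (-0.94), *SESN2* (-1.38) and *DDIT4* (-0.912) rose in both lines and less in 1205Lu-R. *XBP1* (-0.597) and *TRIB3* (-0.316) fell in both lines and more in 1205Lu-R. Of these, the *TRIB3* difference did not pass with DESeq2 or with scaling by library size only. No test for a library far from the others was made, since each group has 2 libraries.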

How the results depend on the processing

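Of 574 values for single members under other settings, 544 kept their direction and their side of the threshold, 14 lost the call, 5 gained one and 11 changed sign. Apart from that of *ATF4*, the changes of sign concerned values near 0 or small beside their error, as for the *CHAC1* difference in response (log2 0.17, SE 0.77). The *ATF4* difference in response went from -0.10 (SE 0.054) to 0.11 with library size only. In that setting the median over all genes moved by 0.21. The *CHAC1* difference in response ran from -0.32 to 0.55 without single libraries. With DMSO, the *ASNS* difference between lines was 0.00061 with DESeq2, 0.0044 with all libraries in one fit and -0.071 to 0.041 without single libraries, and that of *DDIT4* was 0.0027 with DESeq2, 0.0025 with RLE factors, 0.0088 with all libraries in one fit and -0.057 to 0.058 without single libraries.

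Counts of members fell with stricter rules. In 451Lu-R 6 rose, and 3 did by 2-fold and 3 by 4-fold, while 2 fell and 0 did by either. In 1205Lu-R 8 rose, 4 by 2-fold and 0 by 4-fold, and 2 fell, 0 by either. The response was higher in 1205Lu-R for 3 members, 1 by 2-fold and 0 by 4-fold, and lower for 5, 1 and 0. Higher with DMSO were 2 members, but 1 with DESeq2, library size only, no filter, 2-fold or 4-fold. The call lost was that of *SESN2*, also without 451Lu-R DMSO replicate 2 or 1205Lu-R DMSO replicate 1. The 1 left was *CHAC1*, at 3 and 5 counts in 451Lu-R, from whose call nothing is read. Lower with DMSO were 6, 3 and 1. Higher with corin was 1 member, again *CHAC1*, but 2 with library size only or with a replicate block. The call gained was that of *DDIT3* (log2 0.33, adjusted p = 0.0389 with the replicate block). It was also gained without 451Lu-R corin replicate 1 (log2 0.42) and without 1205Lu-R corin replicate 2 (log2 0.48). Lower with corin were 8, 4 and 1. The replicate block changed no other call of a member. The *TRIB3* difference in response also missed the threshold with no filter (adjusted p = 0.08) and without 451Lu-R DMSO replicate 2, either 451Lu-R corin library, 1205Lu-R DMSO replicate 1 or 1205Lu-R corin replicate 1 (adjusted p from 0.062 to 0.197). With library size only, the median over all genes moved by 0.21 in the difference in response, where calls upward went from 45.4% to 64.0% of calls, and by -0.11 between lines with DMSO. Summed with its overlapping gene, *ASNS* was lower in 1205Lu-R with DMSO (log2 -0.24, adjusted p = 0.0018). The cause of these changes was not tested. Where a library was left out, the lone library of that group was assumed to vary like the other group or groups. Depth limits *CHAC1* in 451Lu-R, at 3 to 7 counts a library.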
